A study of Mus musculus with 17 samples.

Results

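The 7 genes described here encode the cyclin-dependent kinase (CDK) inhibitors of the mouse, namely Cdkn1a, Cdkn1b and Cdkn1c of the CIP/KIP family and Cdkn2a, Cdkn2b, Cdkn2c and Cdkn2d of the INK4 family. Membership was set by gene symbol. All 7 were listed in all 17 libraries, out of 18836 genes listed in at least 1 library.

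The study asked how basic fibroblast growth factor (bFGF, a mitogen) and CHIR99021, a small-molecule inhibitor of the kinase GSK-3, act on cultured neural retinal progenitor cells of adult mice (mNRPCs, strain C57BL/6). RNA was taken from a day 0 control, labelled as having no treatment, and after 1, 3, 5 and 7 days in 4 media, namely basic medium alone (BM) and the same medium supplemented with bFGF (written B), CHIR99021 (C) or the pair (BC). The study describes the day 0 control as cells cultured in BM. Each treatment and day is 1 library of poly-A RNA with no replicate, and all share the strain, and no transgene is named. The number of animals or cultures behind the cells is not given in the sources used here.

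CDK inhibitors are the brakes of the G1 phase. INK4 proteins bind CDK4 and CDK6 and keep cyclin D away, whereas CIP/KIP proteins bind whole cyclin and CDK complexes, above all those of CDK2, and at the same time help cyclin D to assemble with CDK4. When the brakes win, the retinoblastoma protein stays unphosphorylated and E2F target genes stay silent. In the retina the family is best known for p27 (Cdkn1b) and p57 (Cdkn1c), which progenitors switch on as they leave the cell cycle.

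Levels are given as FPKM, fragments scaled to transcript length and to the library's mapped total, which can be compared between genes because they are per length. Libraries held 17571973 to 19428744 estimated counts and listed 14820 to 15882 genes. The retinal progenitor genes Pax6, Sox2, Six3, Nes and Hes1 were at 1 FPKM or more in all 17 libraries, but Rax, which marks embryonic retinal progenitors, reached only 0.07 FPKM. The photoreceptor gene Nrl, the endothelial genes Pecam1 and Cdh5 and the glial genes Gfap and Rlbp1 stayed at or below 0.24 FPKM, while Glul, of glia, and Tubb3, of neurons, ran from 12.43 to 32.57 and from 1.23 to 9.07 FPKM. The pericyte receptor Pdgfrb ranged from 3.78 to 114.64 FPKM, and all 3 fibroblast and pericyte markers were lower with bFGF on days 3, 5 and 7, with a median log2 effect of −3.58 on day 7. Of the 5 retinal progenitor genes tested, 3 were lower with bFGF on day 3 (Hes1, Pax6, Sox2) and 3 on day 7 (Nes, Pax6, Six3), and Pax6 spanned 10.71 to 207.22 FPKM. Over all genes tested, 25%, 38.6% and 39.6% were lower with bFGF on days 3, 5 and 7. The microglial gene Cx3cr1 reached 2.25 FPKM, while Aif1 and Ptprc, also of microglia, stayed at or below 0.16 and 0.06 FPKM. The summed FPKM of these 3 genes, 0.02 to 0.54 in the other libraries, was 1.04 in B and 2.26 in BC on day 7. The part of these cell markers in the results below was not tested.

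Differences were tested on the counts with edgeR over 11272 genes, and the log2 fold changes below come from that fit. A called difference has a Benjamini-Hochberg adjusted p under 0.05. Since there was 1 library per treatment and day, the spread came from how far CHIR99021 departed from a single additive effect, so that BM with C and B with BC of a day stood in for replicates. The p-values therefore describe these libraries and not separate cultures. The scaling sets all changes relative to the median gene, and this matters on days 5 and 7, when the normalization factors (TMM) were 0.754 to 0.816 with bFGF against 1.10 to 1.13 without. Scaled by library totals alone, the median gene itself was lower with bFGF by a log2 value of −0.46 on day 5 and −0.54 on day 7. Within bulk RNA, fewer cells that carry an mRNA and less mRNA per cell cannot be told apart.

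The sequences shown here are the 250 bases before each start of the 3 members with more than 1 promoter in the results below. They are from RefSeq on build GRCm38.p6, 5′ to 3′ along the gene's strand. Capitals mark a pair of p53 core letters (CATGNNNNNNCATG) in the first window, an E2F-like run (TTTNGCGC) in the Cdkn2a exon 1α window and GC boxes (GGGCGG) in the others, each searched on both strands. The downstream Cdkn2c window holds none of the 3.
Cdkn1a upstream start, chr17:29090729-29090978, plus strand: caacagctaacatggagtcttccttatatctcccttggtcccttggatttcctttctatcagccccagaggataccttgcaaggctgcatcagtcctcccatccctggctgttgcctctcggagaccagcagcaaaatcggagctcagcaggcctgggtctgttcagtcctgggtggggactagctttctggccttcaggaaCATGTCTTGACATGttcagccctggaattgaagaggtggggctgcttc
Cdkn1a downstream start, chr17:29093519-29093768, plus strand: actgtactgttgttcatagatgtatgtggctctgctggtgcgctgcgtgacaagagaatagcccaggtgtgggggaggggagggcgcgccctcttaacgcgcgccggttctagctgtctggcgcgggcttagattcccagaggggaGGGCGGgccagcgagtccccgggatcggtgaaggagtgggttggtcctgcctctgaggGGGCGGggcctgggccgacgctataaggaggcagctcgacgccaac
Cdkn2a exon 1β start, chr4:89294620-89294869, minus strand: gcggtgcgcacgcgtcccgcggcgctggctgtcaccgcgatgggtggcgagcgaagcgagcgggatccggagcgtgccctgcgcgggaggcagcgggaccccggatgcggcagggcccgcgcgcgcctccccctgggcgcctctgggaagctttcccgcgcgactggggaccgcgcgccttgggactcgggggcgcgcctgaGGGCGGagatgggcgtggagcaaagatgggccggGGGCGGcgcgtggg
Cdkn2a exon 1α start, chr4:89282193-89282442, minus strand: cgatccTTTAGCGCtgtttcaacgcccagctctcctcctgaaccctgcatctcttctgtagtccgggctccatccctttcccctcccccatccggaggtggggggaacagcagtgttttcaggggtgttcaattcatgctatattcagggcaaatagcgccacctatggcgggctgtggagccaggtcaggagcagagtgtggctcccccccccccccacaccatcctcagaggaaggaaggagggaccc
Cdkn2c upstream start, chr4:109666757-109667006, minus strand: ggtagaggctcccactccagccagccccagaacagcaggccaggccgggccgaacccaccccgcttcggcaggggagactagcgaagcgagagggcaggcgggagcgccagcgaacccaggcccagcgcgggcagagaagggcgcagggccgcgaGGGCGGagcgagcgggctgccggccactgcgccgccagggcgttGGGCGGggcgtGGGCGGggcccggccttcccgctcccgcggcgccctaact
Cdkn2c downstream start, chr4:109665373-109665622, minus strand: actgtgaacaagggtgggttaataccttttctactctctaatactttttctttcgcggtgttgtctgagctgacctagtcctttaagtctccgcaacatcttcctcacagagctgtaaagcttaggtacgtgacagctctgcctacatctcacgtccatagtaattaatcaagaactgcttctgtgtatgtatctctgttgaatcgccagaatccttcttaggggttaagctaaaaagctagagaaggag

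Across 32851 windows of the same length, 0.49% held the p53 pair, 32.7% a GC box and 1.13% the E2F-like run. Upstream windows of Cdkn2c and Cdkn2a exon 1β held 3 and 2 GC boxes and were 77.2% and 78.4% G and C, whereas the downstream Cdkn2c window was 42.8% G and C. RefSeq windows were found for 6 of the 7 members, and Cdkn1c is named only. A match of letters is a description only.

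**Figure D1:**
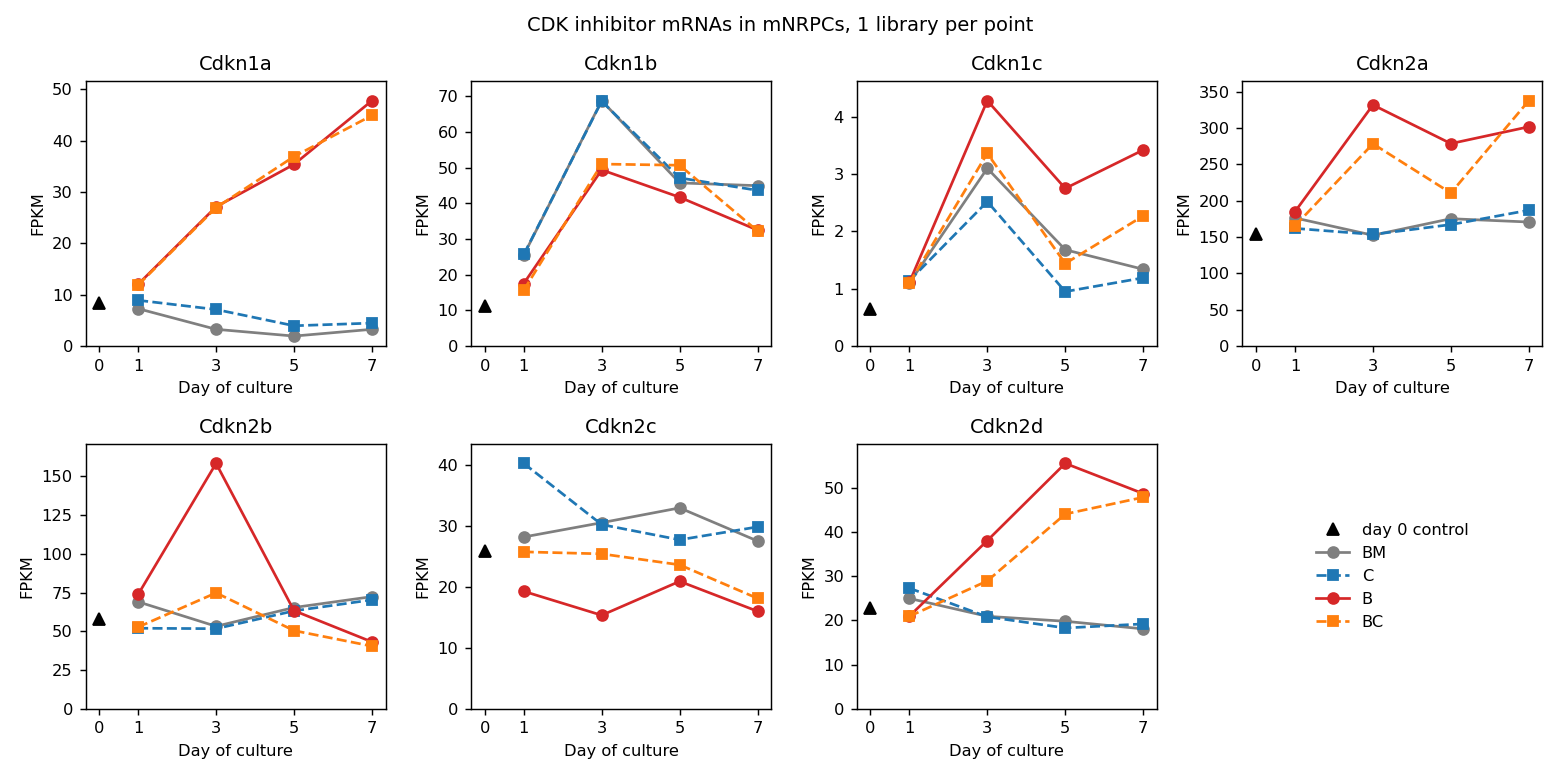
FPKM (vertical axis, from 0, a scale of its own in each panel) of the 7 CDK inhibitor mRNAs against day of culture, 1 library per point, with the day 0 control as a triangle and lines joining the libraries of a treatment. Cdkn1a climbs to 47.81 in B and 44.94 in BC while BM and C stay at or below 8.92, Cdkn1b peaks on day 3 in BM, C, B and BC, and Cdkn2b stands at 158.46 in B on day 3.

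Cdkn1a encodes p21, the inhibitor through which p53 stops the cycle, and lies on chromosome 17 from 29090979 to 29100722. It was the member with the largest bFGF effect in the fit. Without bFGF, FPKM in BM and C was 7.29 and 8.92 on day 1, 3.27 and 7.13 on day 3, 1.95 and 3.96 on day 5, and 3.27 and 4.48 on day 7. With bFGF, FPKM in B and BC was 12.04 and 11.9 on day 1, 27.14 and 26.97 on day 3, 35.4 and 36.93 on day 5, and 47.81 and 44.94 on day 7. The day 0 control stood at 8.46 FPKM, within the range of the cells without bFGF. All 8 libraries with bFGF lay above all 8 without, a separation that 1.39% of the genes tested also showed.

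The bFGF effect on Cdkn1a was not called on day 1, at a log2 fold of 0.66 ± 0.25 (SE, adjusted p = 0.115). It was 2.51 ± 0.26 on day 3 (adjusted p = 1.04e-05), 4.08 ± 0.28 on day 5 (adjusted p = 8.05e-08) and 4.14 ± 0.27 on day 7 (adjusted p = 4.44e-08), which is a 17.6-fold difference. With bFGF the mRNA rose 5.26-fold from day 1 to day 7, and without bFGF it fell by 1.09 ± 0.27 on the log2 scale over the same days (adjusted p = 0.00397). The earlier fall without bFGF, from day 1 to day 3, was −0.64 ± 0.27 (adjusted p = 0.0478) and rested on the BM library of day 3, since without it the value was −0.28 (adjusted p = 0.368). Leaving out any of 6 other libraries also ended that call, with adjusted p-values up to 0.119. Cdkn1a was 1.22 to 2.18 times higher in C than in BM on all 4 days, whereas BC stood at 0.94 to 1.04 times B, and the interaction of bFGF and CHIR99021 was −0.69 ± 0.16 (adjusted p = 0.0835).

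Both RefSeq starts of Cdkn1a are annotated, 2790 bases apart. The length column of the deposited tables was read as the mean length of a gene's transcripts weighted by their estimated abundance, as RSEM writes it. The sources name both RSEM and eXpress, so this reading, on which the transcript shares of Cdkn2a and Cdkn2c below rest, is not settled. For Cdkn1a the length was 1913 bases in all 17 libraries. That is the length of the transcript from the downstream start, computed from its exons, while the transcript from the upstream start would be 1943 bases with the same 3′ end. The p53 pair begins 48 bases before the upstream start and 2838 bases before the downstream one.

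Since p53 is the best known activator of Cdkn1a, 14 other p53 target genes were read beside it, of which 13 were tested. On day 3, 3 were higher with bFGF, 4 were lower and the median log2 effect was −0.03, against 25.4% of all genes called higher and 25% called lower. On day 7, 5 were higher, 6 were lower and the median was −0.24, and by library totals alone 2 were higher and 8 lower. On that day 38.8% of all genes were called higher and 39.6% lower. Plk3, a stress-induced kinase, was at 4.44 and 4.67 FPKM in BM and C on day 7 and at 97.82 and 78.56 in B and BC, a log2 effect of 4.81 ± 0.30 (adjusted p = 3.58e-08). Bax, which permeabilizes mitochondria in apoptosis, had an effect of 0.42 ± 0.13 (adjusted p = 0.0103) and was not called by library totals alone. Phlda3, an inhibitor of Akt, and Ccng1, cyclin G1, were lower with bFGF on day 7, by −0.99 ± 0.17 (adjusted p = 0.000186) and −0.30 ± 0.10 (adjusted p = 0.0181). On day 5, 6 of the 13 were higher and 5 lower, or 2 and 7 by library totals. Over all genes 37.2% were called higher and 38.6% lower that day. On days 3, 5 and 7 the called genes of the list went in both directions, as did those over all genes. Whether p53 had a part in the Cdkn1a difference was not tested.

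**Figure D2:**
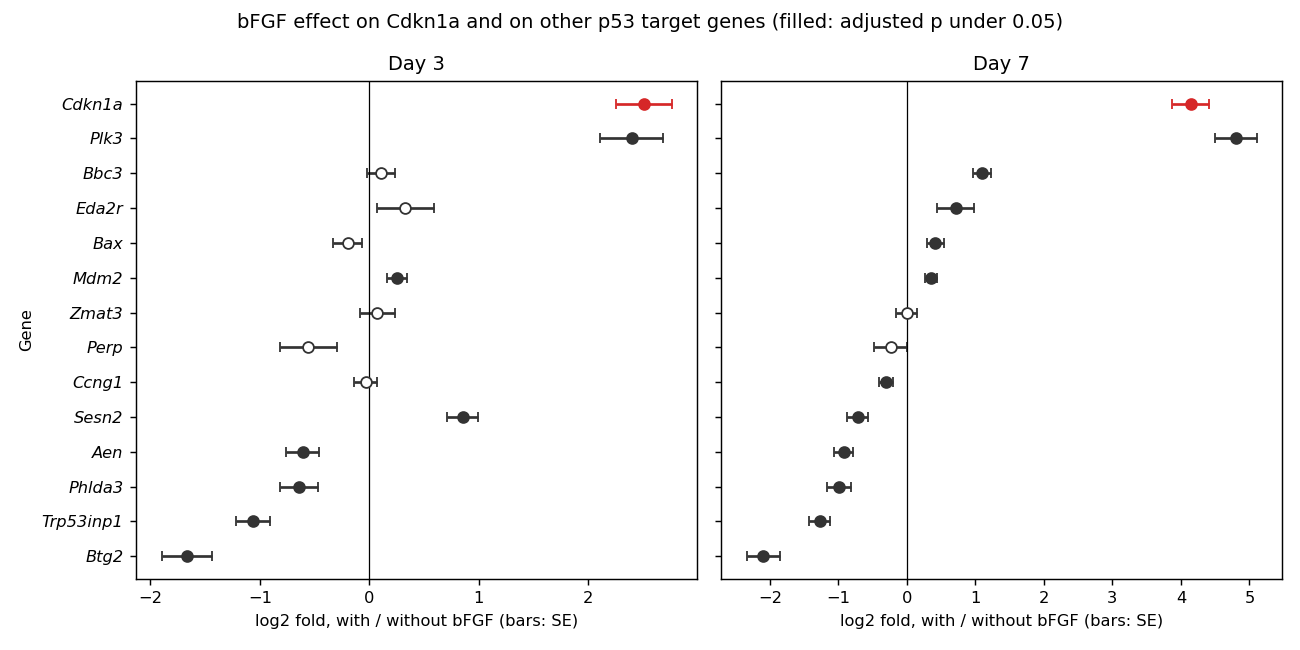
Log2 bFGF effect (horizontal axis, with / without bFGF, bars: standard error of the edgeR fit) on day 3 and day 7 for Cdkn1a (red) and 13 other p53 target genes, filled where the adjusted p was under 0.05. Cdkn1a sits at 2.51 and 4.14, beside Plk3 at 2.40 and 4.81, while the other genes spread on either side of 0.

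Cdkn1b encodes p27, which holds CDK2 inactive in resting cells, and lies on chromosome 6 from 134920401 to 134925525. Its mRNA was higher in every library of days 1, 3, 5 and 7 than in the day 0 control, which stood at 11.12 FPKM. In BM and C it was at 25.5 and 25.68 FPKM on day 1, 68.8 and 68.66 on day 3, 45.75 and 47.15 on day 5, and 44.97 and 43.65 on day 7. In B and BC it was at 17.54 and 15.65 on day 1, 49.39 and 51.03 on day 3, 41.73 and 50.7 on day 5, and 32.5 and 32.26 on day 7. The highest value of B, C, BM and BC alike was on day 3.

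The rise without bFGF was 1.44 ± 0.09 in log2 from day 1 to day 3 (adjusted p = 1.08e-07) and 0.77 ± 0.09 from day 1 to day 7 (adjusted p = 1.8e-05). With bFGF the rise from day 1 to day 7 was 1.40 ± 0.10 (adjusted p = 8.96e-08), or 0.97 by library totals. On day 1 Cdkn1b was the only member that edgeR called for bFGF, lower by −0.54 ± 0.10 (adjusted p = 0.00563), against 4.46% of all genes called lower that day. Without the BC library of day 1 that effect was −0.47 and the call was lost (adjusted p = 0.0839). DESeq2 called Cdkn2c lower on day 1 as well, at −0.53 (adjusted p = 0.0375). Cdkn1b was lower with bFGF by −0.36 ± 0.09 on day 3 as well (adjusted p = 0.00645). The later effects turned with the scaling: on day 5 the value was 0.44 ± 0.09 (adjusted p = 0.000898) and −0.00576 by library totals, and on day 7 it was 0.09 ± 0.09 (adjusted p = 0.378) and −0.45 by library totals (adjusted p = 0.000829). Cdkn1b was 1.02 times as high with CHIR99021 as without, with a log2 value of 0.03 ± 0.05 (adjusted p = 0.696).

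FoxO factors are known activators of Cdkn1b, and all 4 (Foxo1, Foxo3, Foxo4, Foxo6) rose without bFGF from day 1 to day 3, where 35.4% of all genes did. Their summed FPKM rose over these days with bFGF as well, from 28.12 to 59.02 in B and from 24.01 to 61.31 in BC. It went from 32.28 to 70.12 in BM and from 30.27 to 66.91 in C. Foxo3 was at 11.95 FPKM in BM on day 1 and at 35.55 on day 3, a log2 change over BM and C of 1.56 ± 0.10 (adjusted p = 9.78e-08). On day 7, 3 of the 4 were lower with bFGF, or all 4 by library totals, where 39.6% of all genes were called lower. With TMM factors Foxo3 was not called, at 0.15 ± 0.10 (adjusted p = 0.167).

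The p27 and p21 proteins are destroyed by ubiquitin ligases, and 12 turnover genes were found and tested. From day 1 to day 3 without bFGF, 7 fell and 1 rose, with a median log2 change of −0.37, where 32% of all genes fell and 35.4% rose. Cks1b, the cofactor that lets the ligase subunit Skp2 recognise p27, fell from 180.43 FPKM in BM on day 1 to 32.1 on day 3, a change over BM and C of −2.47 ± 0.15 (adjusted p = 7.78e-08). On day 7, 8 of the 12 were higher with bFGF and 2 lower, or 5 and 4 by library totals, where 38.8% of all genes were called higher and 39.6% lower, and Cks1b was at 249.7 and 243.12 FPKM in B and BC. Skp1a, an adaptor of the same ligase, was higher on day 7 by 0.73 ± 0.08 (adjusted p = 2.95e-06), and Ddb1, of the ligase that takes p21, by 0.36 ± 0.09 (adjusted p = 0.00268), the latter not called by library totals. Cdc20, an activator of the anaphase ligase, was higher by 2.91 ± 0.20 (adjusted p = 6.71e-08). The RNA data hold no protein levels, so turnover itself was not measured.

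Cdkn1c encodes p57, the imprinted CIP/KIP member, and lies on chromosome 7 from 143458339 to 143461059. It was the lowest of the 7 in every library, with 25 to 151 counts. In the day 0 control the 25 counts have an exact 95% Poisson interval of 16.2 to 36.9, which covers counting error only. FPKM in BM and C was 1.1 and 1.14 on day 1, 3.1 and 2.52 on day 3, 1.68 and 0.95 on day 5, and 1.34 and 1.19 on day 7. In B and BC it was 1.11 and 1.1 on day 1, 4.28 and 3.36 on day 3, 2.75 and 1.44 on day 5, and 3.42 and 2.27 on day 7. Like Cdkn1b it was highest on day 3 in BM, C, B and BC, and B stood above BM from day 3 on.

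The rise of Cdkn1c without bFGF was 1.34 ± 0.25 in log2 from day 1 to day 3 (adjusted p = 0.000498), and by day 7 the difference from day 1 was 0.13 ± 0.27 (adjusted p = 0.703). The bFGF effect was 0.53 ± 0.22 on day 3 (adjusted p = 0.0676), 1.12 ± 0.25 on day 5 (adjusted p = 0.00152) and 1.69 ± 0.25 on day 7 (adjusted p = 4.47e-05). It was the only member that edgeR called for CHIR99021, lower by −0.40 ± 0.12 (adjusted p = 0.0425), where 9.79% of all genes were called lower. That call was lost when any of 12 libraries, all those of days 3, 5 and 7, was left out, with values from −0.43 to −0.31 and adjusted p-values from 0.0607 to 0.0965. It was lost in the additive model too (adjusted p = 0.614) and by the exact sign-flip test over the 8 same-day pairs (adjusted p = 0.0987).

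**Figure D3:**
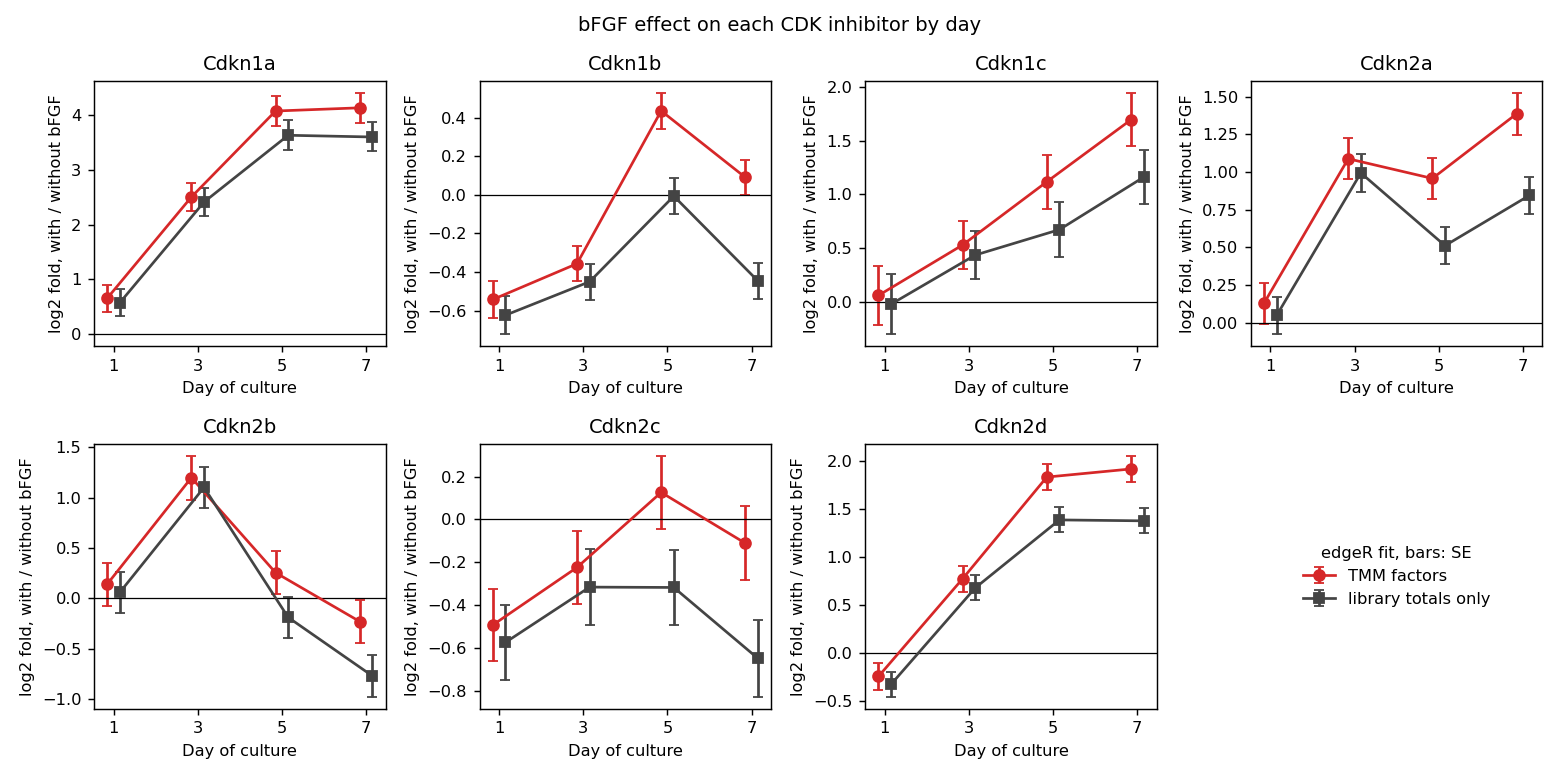
Log2 bFGF effect (vertical axis, with / without bFGF, bars: standard error of the edgeR fit) by day of culture for the 7 members, with TMM factors (red circles) and with library totals only (grey squares). Cdkn1a, Cdkn2a and Cdkn2d stay above 0 from day 3 on under both scalings, while Cdkn1b, Cdkn2b and Cdkn2c change sign on day 5 or on day 7 with the scaling.

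Cdkn2a holds overlapping genes for p16INK4a, from exon 1α, and p19ARF, from exon 1β. The latter is no CDK inhibitor but protects p53 by binding Mdm2. The gene lies on chromosome 4 from 89274473 to 89294619. It was the highest of the 7 in every library and made up 45.9% to 64.5% of their summed FPKM. FPKM was 153.87 in the day 0 control. In BM and C it was 176.39 and 162.02 on day 1, 152.55 and 153.68 on day 3, 175.31 and 167.21 on day 5, and 170.76 and 187.01 on day 7. In B and BC it was 184.96 and 165.47 on day 1, 331.93 and 278.44 on day 3, 278.71 and 210.67 on day 5, and 301.81 and 337.77 on day 7. Cells without bFGF thus stayed between 152.55 and 187.01, and from day 3 on every library with bFGF lay above that range. How many of all genes were separated in this way was not counted.

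The bFGF effect on Cdkn2a was 0.13 ± 0.14 in log2 on day 1 (adjusted p = 0.578), 1.09 ± 0.14 on day 3 (adjusted p = 4.99e-05), 0.96 ± 0.14 on day 5 (adjusted p = 3.89e-05) and 1.39 ± 0.14 on day 7 (adjusted p = 1.46e-06). By library totals it was 0.84 on day 7 (adjusted p = 3.72e-05). Without bFGF the change from day 1 was −0.12 ± 0.14 by day 3 (adjusted p = 0.434) and 0.06 ± 0.14 by day 7 (adjusted p = 0.713).

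Read in the same way, the length column tells which Cdkn2a transcript the counts were assigned to. The exon 1β transcript is 929 bases by its exons and RefSeq ends, and the exon 1α transcript is 850 bases. Deposited lengths ran from 928.55 to 929 bases over the 17 libraries, so that the exon 1α transcript made up at most 0.57% of the estimate in any library. On that reading the level given for Cdkn2a is almost wholly that of the transcript with exon 1β, the one named for p19ARF, although both transcripts share their other exons and the split rests on the first exon.

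Among 15 regulators of the Cdkn2a and Cdkn2b locus, 14 were tested. On day 7, 6 were higher with bFGF and 5 lower, with a median log2 effect of −0.00389, and by library totals 3 were higher and 9 lower. Over all genes 38.8% were called higher and 39.6% lower that day. Ezh2, the methyltransferase of Polycomb complex PRC2 that silences the locus, was at 12.55 FPKM in BM and 18.42 in B on day 3 and at 13.73 and 29.79 on day 7. Its effect on day 7 was 1.45 ± 0.15 (adjusted p = 2.65e-06), and that of Suz12, its PRC2 partner, was 0.82 ± 0.10 (adjusted p = 1.07e-05). Id1, an inhibitor of the E proteins that activate Cdkn2a, was higher by 1.87 ± 0.28 (adjusted p = 4.5e-05). Suz12 and Id1 were called higher with bFGF on days 3, 5 and 7 under both scalings, and Ezh2 on days 3 and 7, since on day 5 it was not called by library totals. Bmi1 and Tbx2 of the same list were called lower with bFGF on days 3, 5 and 7 under both scalings.

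Cdkn2b encodes p15, the INK4 inhibitor known for its induction by TGF-beta, and lies next to Cdkn2a on chromosome 4 from 89306289 to 89311032. It was at 57.98 FPKM in the day 0 control. In BM and C it was at 69.08 and 52.01 FPKM on day 1, 53.26 and 51.72 on day 3, 65.39 and 63.23 on day 5, and 72.41 and 70.34 on day 7. In B and BC it was at 73.83 and 52.77 on day 1, 158.46 and 74.86 on day 3, 63.35 and 50.48 on day 5, and 43.18 and 40.44 on day 7. The B library of day 3 stood alone, at 2.12 times BC and 2.98 times BM of the same day.

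On day 3 the bFGF effect on Cdkn2b was 1.20 ± 0.22 in log2 (adjusted p = 0.000701), and without the B library of that day it was 0.70 (adjusted p = 0.00401). It was 0.26 ± 0.22 on day 5 (adjusted p = 0.296) and −0.23 ± 0.22 on day 7 (adjusted p = 0.344). By library totals the values were −0.19 on day 5 and −0.77 on day 7 (adjusted p = 0.00415), so that the direction on day 5 and the call on day 7 turned on the scaling. Averaged over the 4 days the effect was 0.34 ± 0.11 (adjusted p = 0.0107), or 0.05 by library totals (adjusted p = 0.647) and 0.21 without the B library of day 3 (adjusted p = 0.0128). Cdkn2b was lower with CHIR99021 in 8 of 8 same-day pairs, and the share of all genes that were so was not counted. The exact sign-flip test over these pairs gave adjusted p = 0.0573 and called 0 of all genes for CHIR99021. The edgeR fit gave −0.31 ± 0.11 (adjusted p = 0.0622).

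All 9 genes of the TGF-beta response list rose without bFGF from day 1 to day 3, where 35.4% of all genes did, with a median log2 change of 0.93. Their summed FPKM rose over these days with bFGF as well, from 144.94 to 279.66 in B and from 137.84 to 362.24 in BC. It went from 212.71 to 382.65 in BM and from 218.24 to 448 in C. Tgfbi, a secreted matrix protein induced by TGF-beta, rose by 0.74 ± 0.17 (adjusted p = 0.00203). Cdkn2b in the same contrast had a log2 value of −0.17 ± 0.22 (adjusted p = 0.502), and by day 7 it was 0.23 ± 0.21 (adjusted p = 0.359).

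Cdkn2c encodes p18 and lies on chromosome 4 from 109660876 to 109666756. It was the only member with FPKM lower in all 8 libraries with bFGF than in all 8 without, which 4.44% of the genes tested also showed. In BM and C, FPKM was 28.21 and 40.3 on day 1, 30.56 and 30.25 on day 3, 32.99 and 27.75 on day 5, and 27.55 and 29.87 on day 7. In B and BC it was 19.29 and 25.77 on day 1, 15.36 and 25.44 on day 3, 20.93 and 23.64 on day 5, and 16.01 and 18.13 on day 7. The day 0 control stood between the groups, at 25.98.

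The test on counts did not call that difference for Cdkn2c. The mean bFGF effect was −0.18 ± 0.09 in log2 (adjusted p = 0.074), whereas on log2(FPKM + 1) an exact sign-flip test over the 8 same-day pairs gave −0.58, lower with bFGF in 8 of 8 pairs (p = 0.00781, the smallest it can give, adjusted p = 0.0213 over all genes). By library totals the count test gave −0.47 (adjusted p = 0.000295). The count test does not divide by transcript length and the FPKM test does, and their scaling differs too. Without bFGF, counts fell from day 1 to day 7 by 0.60 ± 0.17 on the log2 scale (adjusted p = 0.00845), while by limma on log2(FPKM + 1) the change was −0.23 (adjusted p = 0.274). Without the C library of day 1 the fall in counts was −0.48 (adjusted p = 0.0769).

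What moved with Cdkn2c was the deposited length. By its exons and RefSeq ends the transcript from the upstream start is 2038 bases and the transcript from the downstream start is 1106 bases, both with the coding sequence of p18. The GENCODE annotation gives the upstream-start transcript as 2471 bases. The highest deposited length was 1975.95 bases and reached neither value, so the transcript shares below depend on the RefSeq end chosen here. The mean length was 1968.33 bases in the day 0 control, 1944.2 and 1937.48 in BM and C on day 1, and 1971.84 and 1975.95 in B and BC on day 1. By day 3 it had dropped to 1523.17 and 1521.87 in BM and C and stood at 1831.46 and 1855.89 in B and BC. On day 5 it was 1572.92, 1649.83, 1805.26 and 1728.26 bases in BM, C, B and BC, and on day 7 it was 1504.17, 1594.33, 1621.65 and 1683.58. The length was greater with bFGF in 8 of 8 same-day pairs, and from day 3 on the groups overlapped by the C library of day 5 and the B library of day 7.

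Read as a mixture of the 2 transcripts, the downstream-start transcript made up 7.48% of Cdkn2c FPKM on day 0 and 6.66% to 10.8% on day 1. From day 3 to day 7 it made up 41.6% to 57.3% without bFGF and 19.5% to 44.7% with bFGF. In BM it went from 2.84 FPKM on day 1 to 16.9 on day 3, while the upstream-start transcript went from 25.4 to 13.7. In B the same values were 1.37 and 3.40 FPKM for the downstream start and 17.92 and 11.96 for the upstream start. The summed FPKM of the gene in BM, 28.21 and 30.56, changed less than either transcript.

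The length with bFGF exceeded that without by 153 bases on average (SD 121 over the 8 pairs, from 27.6 to 334), and by 193 bases without day 1. The exact two-sided sign-flip test gave p = 0.00781, the smallest it can give, and adjusted p = 0.0997 over the 8171 genes with several transcripts. No gene of that family passed (0%), and 2.46% of them were longer with bFGF in 8 of 8 pairs. For CHIR99021 the length was greater in 5 of 8 pairs (exact p = 0.281). The highest length of Cdkn2c was 1.31 times its lowest, which 6.88% of those genes matched or exceeded, against a median gene of 1.04. The result was chosen after the lengths were seen, and it rests on the deposited estimate of which transcript a read came from.

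**Figure D4:**
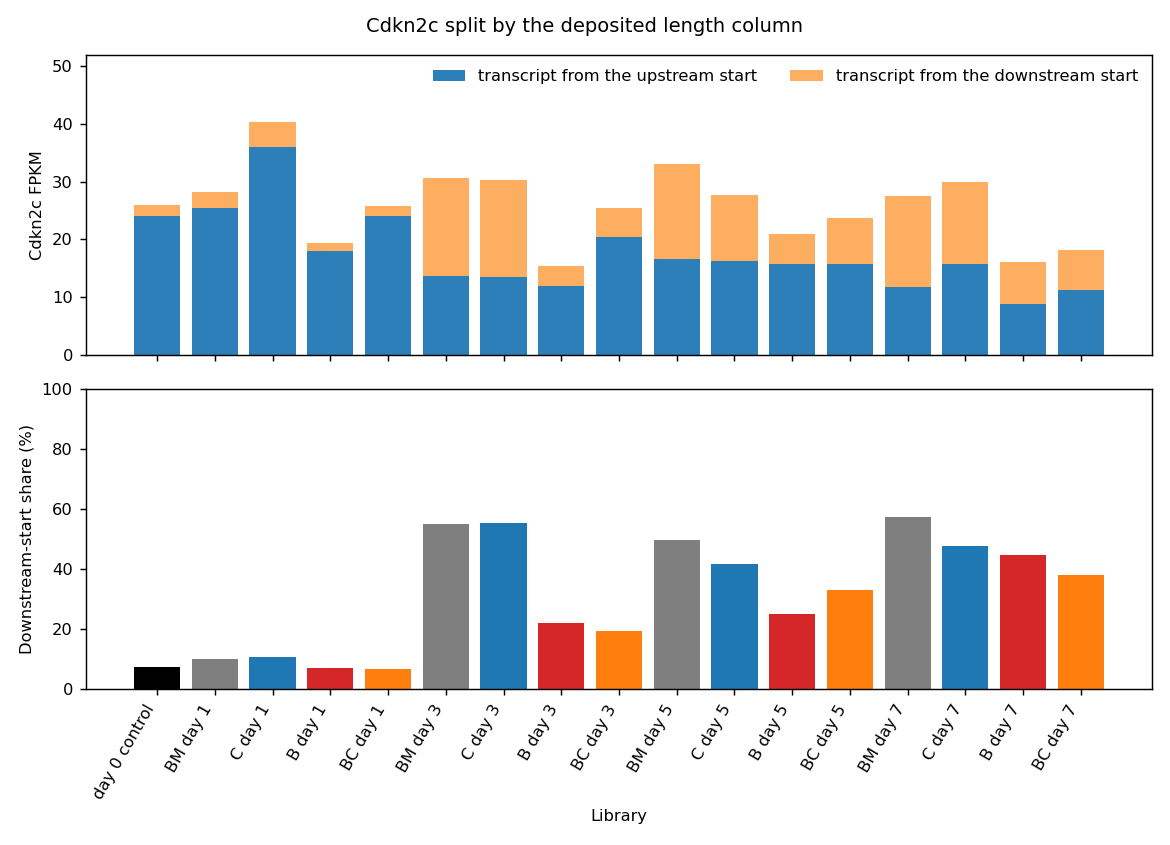
Top, Cdkn2c FPKM (vertical axis, from 0) of each of the 17 libraries, split into the transcripts of the upstream and downstream starts from the deposited mean length. Bottom, share of the downstream-start transcript in percent, 1 bar per library coloured by treatment: it is at or below 10.8% on days 0 and 1 and reaches 55.2% and 55.4% in BM and C on day 3 against 22.2% and 19.5% in B and BC.

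Cdkn2d encodes p19INK4d, which is unrelated to p19ARF, and lies on chromosome 9 from 21288459 to 21291421. In BM and C it was at 24.98 and 27.3 FPKM on day 1, 20.93 and 20.82 on day 3, 19.81 and 18.29 on day 5, and 18.09 and 19.21 on day 7. In B and BC it was at 20.96 and 20.93 FPKM on day 1, 38.07 and 28.94 on day 3, 55.55 and 44.08 on day 5, and 48.71 and 47.87 on day 7. The day 0 control had 22.81 FPKM. On day 1 the libraries with bFGF were the lower ones, and from day 3 on they were the higher ones. The share of all genes with such a separation from day 3 on was not counted.

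The bFGF effect on Cdkn2d was −0.24 ± 0.14 in log2 on day 1 (adjusted p = 0.282), 0.77 ± 0.14 on day 3 (adjusted p = 0.000551), 1.83 ± 0.14 on day 5 (adjusted p = 1.69e-07) and 1.91 ± 0.14 on day 7 (adjusted p = 9.4e-08). By library totals it was still 1.37 on day 7 (adjusted p = 6.73e-07). With bFGF it rose 3.13-fold from day 1 to day 7, a log2 change of 1.65 ± 0.14 that was 1.21 by library totals. Without bFGF it fell by 0.51 ± 0.14 on the log2 scale (adjusted p = 0.00602), and the value was −0.42 without the C library of day 1 (adjusted p = 0.0548).

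By comparison, edgeR called 5 of the 7 members higher with bFGF over the 4 days and none lower, where 40.5% of all genes were called higher and 41.3% lower. By library totals 4 were higher and 2 lower (Cdkn1b at −0.38, adjusted p = 7.38e-06, and Cdkn2c). The sign-flip test on FPKM called 3 higher (Cdkn1a, Cdkn1c, Cdkn2a) and the same 2 lower, and not Cdkn2d (higher in 6 of 8 pairs, adjusted p = 0.0626). On day 1, 1 of 7 was lower and 0 higher, where 6.21% of all genes were called higher. On day 3, 4 were higher (Cdkn1a, Cdkn2a, Cdkn2b, Cdkn2d) and 1 lower (Cdkn1b), under both scalings, where 25.4% of all genes were higher and 25% lower. On day 5, 5 were higher and 0 lower, or 4 and 0 by library totals, where 37.2% of all genes were higher and 38.6% lower. On day 7, 4 were higher (Cdkn1a, Cdkn1c, Cdkn2a, Cdkn2d) and 0 lower, where 38.8% of all genes were higher and 39.6% lower. By library totals the same 4 were higher and the other 3 lower, with Cdkn2c at −0.65 (adjusted p = 0.00481).

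Over time without bFGF, 2 members rose from day 1 to day 3 (Cdkn1b, Cdkn1c) and 2 fell (Cdkn1a, Cdkn2c, and by library totals also Cdkn2d), where 35.4% of all genes rose and 32% fell. From day 1 to day 7 only Cdkn1b rose, where 32.3% of all genes did, and Cdkn1a, Cdkn2c and Cdkn2d fell, where 31.5% did. With bFGF, 5 members rose from day 1 to day 7 and none fell, where 35.8% of all genes rose and 39.5% fell. By library totals 2 fell in that contrast, Cdkn2b by 0.57 (adjusted p = 0.0225) and Cdkn2c by 0.65 on the log2 scale (adjusted p = 0.00515). The fall of Cdkn2c to day 3 was not called without the C library of day 1 or of day 3, with values of −0.38 in both. The bFGF effect was higher on day 7 than on day 1 for 5 members and lower for none, or for 4 and 1 (Cdkn2b) by library totals, where 31.3% of all genes were called higher and 34.1% lower. These comparisons share their day 1 libraries.

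The kinases, cyclins and pocket proteins that the members act on moved as follows. Of 11 CDK and cyclin genes, 10 fell from day 1 to day 3 without bFGF, with a median log2 change of −1.84, where 32% of all genes fell. On day 3, 7 were higher with bFGF and 0 lower, where 25.4% of all genes were higher and 25% lower. Ccnd1, cyclin D1, was at 538.09 FPKM in BM on day 1 and 116.29 on day 3, against 716.87 and 419.79 in B, with a bFGF effect on day 3 of 1.86 ± 0.16 (adjusted p = 2.87e-06). Cdk4, the kinase that INK4 proteins bind, was at 92.84 and 91.31 FPKM in BM and C and at 113.54 and 117.46 in B and BC on day 3, an effect of 0.43 ± 0.08 (adjusted p = 0.00062). On day 5 Cdk4 was at 110.67 and 110.64 FPKM in BM and C and at 86.54 and 92.73 in B and BC. It was not called that day with TMM factors and was called lower with bFGF by library totals. On day 7 its effect was 0.60 ± 0.08 (adjusted p = 1.26e-05), a call that was lost by library totals. Its FPKM on day 7 was 113.28 and 113.54 in BM and C and 112.98 and 122.26 in B and BC. Among the pocket proteins Rb1 and Rbl2 rose and Rbl1 fell from day 1 to day 3 without bFGF.

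All 10 proliferation genes fell from day 1 to day 3 without bFGF, with a median log2 change of −3.16, where 32% of all genes fell. All 10 were higher with bFGF on days 3 and 7, with medians of 2.20 and 3.24, where 25.4% and 38.8% of all genes were. Top2a, a topoisomerase of dividing cells, was at 133.99 and 95.62 FPKM in B and BC on day 7 against 18.09 and 14.56 in BM and C. From day 3 on, the libraries with the highest Cdkn1a and Cdkn2d were thus among those with high proliferation genes, as a description over libraries that share their medium. The summed FPKM of the 10 genes was higher still earlier, at 785.24 on day 0 and 606.18 to 711.68 on day 1. In B and BC on day 7 it was 540.2 and 445.34. On days 0 and 1, Cdkn1a was at 7.29 to 12.04 FPKM and Cdkn2d at 20.93 to 27.3. Among 5 other genes named for CDKs or their inhibitors, Cdk2ap2, a CDK2-associated protein, was at 200.49 and 236.07 FPKM in B and BC on day 7 against 47.04 and 45.69 in BM and C, and Cdkn3, a phosphatase of CDKs, had an effect of 2.67 ± 0.27 (adjusted p = 1.73e-06).

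In the order of median FPKM over the 17 libraries the members ran from Cdkn2a at 176.39 through Cdkn2b at 63.23, Cdkn1b at 43.65, Cdkn2c at 25.98, Cdkn2d at 22.81 and Cdkn1a at 8.92 to Cdkn1c at 1.44. The ranges of neighbours in this order overlapped, for Cdkn2a and Cdkn2b only through the B library of day 3. The 4 Cdkn2 genes made up 76.6% to 92.8% of the summed FPKM of the family, a share that is mostly Cdkn2a and thus, as read above, mostly the exon 1β transcript. Cdkn1a ran 24.5-fold from its lowest to its highest library, against 2.21-fold for Cdkn2a.

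Cdkn1a, Cdkn2a and Cdkn2d followed each other over the 17 libraries, with Pearson r of 0.91 for Cdkn1a and Cdkn2d, 0.82 for Cdkn1a and Cdkn2a and 0.82 for Cdkn2a and Cdkn2d on log2(FPKM + 1). Cdkn2c ran against them, with r of −0.75, −0.79 and −0.65 for Cdkn1a, Cdkn2a and Cdkn2d. Cdkn1b had r of 0.60 with Cdkn1c and from −0.09 to 0.17 with the others. These are descriptions, since libraries share medium and day.

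Among 11251 other genes, those most like each member over the 17 libraries were the following. For Cdkn1a they were Pgk1 (r = 0.98), Tpi1 and Aldoa, and Pgk1 ran from 232.77 to 1654.6 FPKM. For Cdkn1b they were Abhd4, Foxo3 and Bcl6 (r = 0.98, 0.98 and 0.97), and for Cdkn1c they were Pacs1, Mxi1 and Rasa4 (r = 0.96, 0.95 and 0.94). For Cdkn2a they were Arhgdib, Layn and Rab3b, all with r of 0.93. For Cdkn2b no gene exceeded r of 0.84, reached by Synj2, ahead of St6gal1 and Arntl. For Cdkn2c they were Ap3d1, Pcdh11x and Habp4 (r = 0.89, 0.87 and 0.85), and for Cdkn2d they were Ccdc85b, Rhov and 2700060E02Rik, with r from 0.95 to 0.96.

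By edgeR the addition of CHIR99021 was called for 1 of the 7 members, Cdkn1c, where 19.5% of all genes were called in either direction. DESeq2 called 3, adding Cdkn2b at −0.31 (adjusted p = 0.026) and Cdkn2c at 0.26 (adjusted p = 0.0316), and by library totals edgeR called Cdkn1c and Cdkn2b (adjusted p = 0.0491). In edgeR Cdkn2c had a log2 value of 0.26 ± 0.09 (adjusted p = 0.0525), with BC above B on all 4 days by 1.13 to 1.66 times and C above BM on 2 of 4. The interaction of bFGF and CHIR99021 was called by edgeR for 0 of 7 members, with 1 (Cdkn1a) at an unadjusted p under 0.05, and DESeq2 called 1, also Cdkn1a (adjusted p = 0.00551). Among all genes 0.692% were called for the interaction.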

How the data were processed

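Poly-A RNA of 17 libraries was sequenced on the BGISEQ-500 platform. The submitters' processing notes name Bowtie2, RSEM and mm10, whereas the methods of the study name Bowtie 2 and eXpress. The deposited tables hold, per gene, estimated counts, FPKM (scaled by the authors to transcript length and mapped total, listed from 0.01) and the mean transcript length in bases. A gene that a library did not list was set to 0.

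Counts were rounded and fitted in edgeR 4.0.16 (R 4.3.3) by quasi-likelihood with TMM factors, on 11272 genes averaging 1 FPKM or more across the 16 cultured libraries. The design had a mean for each day with and without bFGF plus a CHIR99021 term, which left 7 residual degrees of freedom and a common biological coefficient of variation of 10.0%. Day 0 entered no test. The standard error is the log2 fold change divided by the square root of F. Alternatives were DESeq2 1.42.0, limma 3.58.1 on log2(FPKM + 1) and log2(FPKM + 0.1), no filter, an average of 5 FPKM or more, no TMM factors, an additive model, exact sign-flip tests over the 8 same-day pairs, and leaving out each library in turn. The script was tested on simulated data. Depth was 17571973 to 19428744 counts.

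Transcript lengths were summed from GENCODE M21 exons with their outer ends moved to the RefSeq start and gene end on GRCm38.p6. This gave the deposited length for Cdkn1a and the highest deposited length for Cdkn2a. RefSeq also lists the lncRNA Gm12610 across Cdkn2b, and no source states that strand was used in counting. Named genes are the 7 members, the 3 genes most like each, and from each gene list the 4 with the highest mean FPKM. Bmi1 and Tbx2 are also named. The Cdkn2c length result was chosen after the lengths were seen. The members and lists were chosen with earlier results of these data known. Some genes of the lists are not reported here.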

Additional observations from a re-analysis of the deposited data

Results flagged for a closer look

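For 5 members the bFGF effect differed between day 7 and day 1 by the edgeR test of that difference, where 31.3% of all genes were called for a higher and 34.1% for a lower effect on day 7. The difference in log2 was 3.49 ± 0.36 for Cdkn1a (adjusted p = 5.99e-06), 2.15 ± 0.19 for Cdkn2d (adjusted p = 1.93e-06), 1.64 ± 0.37 for Cdkn1c (adjusted p = 0.00204) and 1.25 ± 0.19 for Cdkn2a (adjusted p = 0.00012). For Cdkn1b it was 0.63 ± 0.13 (adjusted p = 0.00117), but by library totals alone it was 0.18 (adjusted p = 0.262). Cdkn2b, at −0.37 ± 0.30 (adjusted p = 0.3), was called for a lower effect only by library totals and by limma, at −0.83 to −0.82.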

How the results depend on the processing

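By replicate number, no paired analysis was possible because every treatment and day had 1 library. Libraries of the same day were paired instead, in the sign-flip test. The mean bFGF effect was called for 9213 genes, 49.5% of them higher, and for 5919 by the sign-flip test on FPKM, 28.8% of them higher. The day 1 bFGF effect was called for 1203 genes, and for 145 to 1784 when 1 library was left out, with 145 without BC, 200 without BM, 360 without B and 380 without C of day 1. The CHIR99021 effect was called for 2199 genes by edgeR (3900 at an unadjusted p under 0.05), for 38 by the additive model and for 0 by the sign-flip test. The interaction was called for 78 genes, for 224 with no filter, 45 at an average of 5 FPKM or more and 242 by DESeq2.

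With no TMM factors, and by limma with pseudocounts 1 and 0.1, the bFGF effect on day 1 was −0.0229, −0.0102 and −0.0177 for Cdkn1c. On day 5 it was −0.00576, −0.0135 and −0.0139 for Cdkn1b, −0.19, −0.18 and −0.18 for Cdkn2b, and −0.32, −0.43 and −0.44 for Cdkn2c. On day 7 it was −0.45, −0.44 and −0.45 for Cdkn1b, which was also −0.0349 at an average of 5 FPKM or more. The day 7 minus day 1 difference for Cdkn2c was −0.0751, −0.14 and −0.15. Cdkn2a without bFGF on day 7 against day 1 was −0.0411 with no filter. Leaving out 1 library gave −0.24 to 0.30 for Cdkn1c on day 1, −0.51 to 0.0270 for Cdkn2c on day 3 and −0.12 to 0.37 on day 5. On day 7 against day 1 it gave −0.18 to 0.36 for Cdkn1c and −0.11 to 0.15 for Cdkn2a without bFGF, and −0.31 to 0.0243 for Cdkn2b with bFGF. For Cdkn1b and CHIR99021 it gave −0.00398 to 0.0518. The cause was not tested. Calls were gained for the mean bFGF effect on Cdkn2c without BM of day 1, C of day 3, BC of day 3 or C of day 5 (−0.25 to −0.22). The bFGF effects on Cdkn1a, Cdkn2a and Cdkn2d on days 3, 5 and 7 kept their direction and call under each alternative fitted by day and each library left out. The sign-flip test and the additive model gave only means over the days, and the former lost the call for Cdkn2d (0.75, adjusted p = 0.0626). Cdkn1c, at 25 to 151 counts, is limited by depth.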
